A study of Saccharomyces cerevisiae with 4 samples.

Results

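Ribonucleotide reductase is the enzyme that turns ribonucleotides into deoxyribonucleotides, the building blocks of DNA. In budding yeast the large, catalytic subunit is encoded by RNR1 and, for a minor form made mainly after DNA damage, by RNR3, and the small subunit is a heterodimer of the products of RNR2 and RNR4. RFX1 (also called CRT1) encodes the repressor that binds the promoters of RNR2, RNR3 and RNR4 and recruits the Tup1-Cyc8 corepressor. When DNA is damaged or replication stalls, the kinases Mec1, Rad53 and Dun1 relieve that repression, and the same pathway removes Sml1, a small protein that inhibits the enzyme. Hug1 is another small inhibitor, made after damage. RNR1 is instead known mainly as a G1/S gene under the control of the MBF transcription factor.

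The genes described are the 7 named by these roles, RNR1 (YER070W), RNR2 (YJL026W), RNR3 (YIL066C), RNR4 (YGR180C), HUG1 (YML058W-A), SML1 (YML058W) and RFX1 (YLR176C), and their probes were found by the open reading frame at the start of the probe name. Of the 7 genes, 5 had a probe, 1 probe each, among the 6210 probes of the table. HUG1 and SML1 were not analysed here. The 5 measured genes lie on 5 chromosomes, RNR1 on V, RNR4 on VII, RNR3 on IX, RNR2 on X and RFX1 on XII.

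The 5A mutant carries 5 alanines inserted between the diheptads (paired heptapeptide repeats) of the tail, or CTD, of the RNA polymerase II large subunit, and it was set against control yeast with the WT CTD. The 5A construct was brought into strain Z26 by plasmid shuffle, in which a plasmid carries the new polymerase gene and selection removes the resident copy. The control is described as transformed with the WT CTD, and whether it went through the same selection is not stated. Total RNA was taken from log-phase cultures of the 5A mutant and the control, in 4 replicates each. Both were grown in YPD at 30 °C to an optical density of 0.8. Then 5A RNA labelled with Cy5 was hybridised with control RNA labelled with Cy3 on 4 spotted oligonucleotide arrays. The dyes were not exchanged on any array, so a dye effect and a difference between the strains cannot be told apart. The sources used here do not say whether the replicates were separate cultures or clones, so the p-values measure the spread between these 4 arrays.

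Each value is a log2 ratio of 5A over WT, in which -1 is a 2-fold lower and 1 a 2-fold higher signal in the 5A mutant. Neither the base of the logarithm nor which strain is on top is stated beside the deposited values, and both are taken here as likely from how many probes passed 2-fold each way. The 4 arrays had 6022 to 6177 values each and medians between -0.01 and 0.00. The median SD of a probe over the 4 arrays was 0.30, and array 2 received the lowest relative quality weight from limma (0.35, against 0.99 to 2.19 for the others). Probes called in limma (adjusted p under 0.05) numbered 2495 of 6157 tested, or 40.5%. The lower calls were 20.7% and the higher calls 19.8% of the probes tested. As a check of the strains, the probe of RPO21, the gene of the altered subunit, lay between -6.40 and -4.64, that of URA3, the marker of the plasmid that the selection removes, between -5.22 and -4.33, and that of LEU2, the marker of the incoming plasmid, between -2.16 and -1.83. All 3 signals were thus far lower in the 5A mutant, and whether the control kept a URA3 plasmid was not tested. The probe sequences were not analysed here, so whether the RPO21 probe binds the altered gene equally well was not tested. The 317 probes of chromosome XI had a median of 0.89, but none of the 5 measured genes lies there.

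Transcripts of 3 of the 4 ribonucleotide reductase genes were lower in the 5A mutant than in the control, RNR1 at 0.552, RNR4 at 0.633 and RNR2 at 0.680 of the control level. These 3 were all of the calls among the 5 measured genes, 3 lower and 0 higher, in a table where 20.7% of probes were called lower. RFX1 had an unadjusted limma p of 0.0388 without passing the adjusted threshold, and RNR3 was far from it. None of the 5 means was past 2-fold, a size that 14.4% of all probes tested reached in either direction. The median of the 5 genes was -0.56 and that of the 4 RNR genes -0.61, while the median of all probes tested was -0.01. The array medians were near 0, so each ratio describes a gene relative to the other probes. RNA per cell was not measured. In whole cultures, a lower relative level within cells and fewer cells in the cell cycle phase that expresses a gene cannot be told apart.

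**Figure D1:**
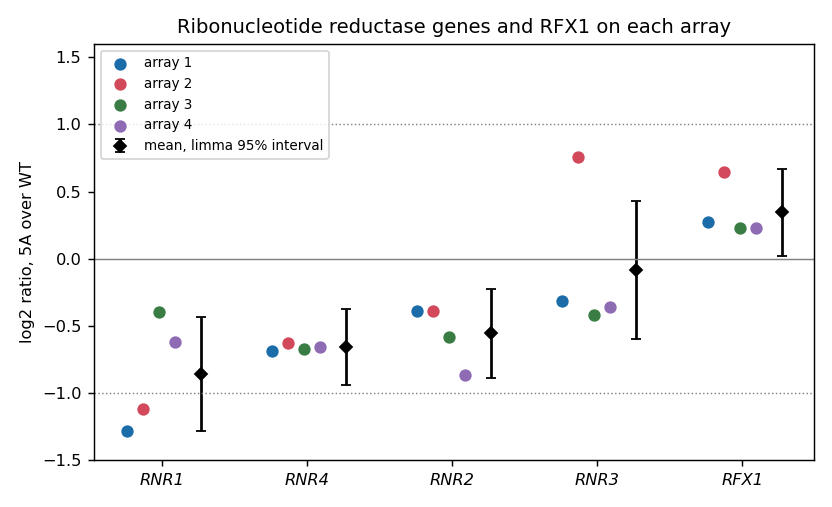
The log2 ratio of 5A over WT (vertical axis) of the 4 RNR genes and RFX1, ordered by their means. Coloured points are the 4 arrays, diamonds and bars are the mean and limma's 95% confidence interval, and dotted lines mark a 2-fold change. All values of RNR1, RNR4 and RNR2 lie below 0, and the array 2 value of RNR3 at 0.76 stands away from its other 3.

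RNR1, the major large subunit gene, had the lowest mean of the 5. Its log2 ratios were -1.29, -1.12, -0.40 and -0.62 on arrays 1 to 4. Arrays 1 and 2 were past 2-fold, the only 2 of the 20 values of these genes that were, and arrays 3 and 4 were not. The mean was -0.86 ± 0.42 (SD, n = 4), with a 95% interval from -1.28 to -0.43 and a limma adjusted p of 0.0101. Of all probes tested, 10.8% had a mean as low or lower. Without array 1 the mean was -0.71 and the call was lost (limma adjusted p = 0.0507).

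RNR4, a small subunit gene, was the most even of them. It gave -0.69, -0.63, -0.67 and -0.66 on the 4 arrays, so that no array was high or low. The mean was -0.66 ± 0.03 (SD, n = 4), with a 95% interval from -0.94 to -0.38 and a limma adjusted p of 0.00579. Only 8 of 5955 fully measured probes, RNR4 among them, had an SD that small (0.134%), and limma's interval is wider than the spread of these 4 values because it draws the variance towards that of all probes. RNR4 stayed called with each array left out in turn.

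RNR2, the other small subunit gene, had log2 ratios of -0.39, -0.39, -0.58 and -0.86. Array 4 was the lowest and arrays 1 and 2 were alike. The mean was -0.56 ± 0.22 (SD, n = 4), with a 95% interval from -0.89 to -0.23 and a limma adjusted p of 0.0189, and 18.7% of all probes tested had a mean as low. The call was lost without array 1, 3 or 4, with limma adjusted p-values of 0.0550, 0.0673 and 0.102 and means of -0.61, -0.55 and -0.45. Those fits called 23.5%, 24.5% and 24.3% of all probes.

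**Figure D2:**
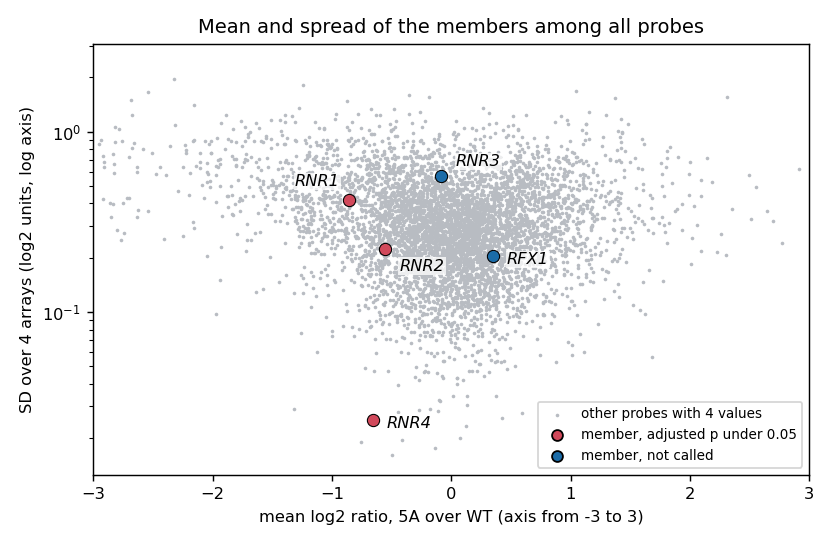
The mean log2 ratio of 5A over WT (horizontal axis) against the SD over the 4 arrays (vertical log axis) for each probe with 4 values, in grey, and for the RNR genes and RFX1. Red points had an adjusted p under 0.05 and blue points did not. RNR4 lies at the lower edge of the cloud with an SD of 0.03, and RNR3 has the largest SD of the 5 genes, 0.56.

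RNR3, the damage-inducible large subunit gene, did not pass the test. Its log2 ratios were -0.32, 0.76, -0.42 and -0.36. Arrays 1, 3 and 4 were alike and below 0, and array 2 was the only value above 0 among the 16 of the RNR genes. The mean was -0.08 ± 0.56 (SD, n = 4), with a 95% interval from -0.60 to 0.43 and a limma adjusted p of 0.777. Without array 2, the mean was -0.36 and the gene was called lower (limma adjusted p = 0.0426), in a fit that called 51.3% of all probes, against 40.5% with all arrays. The interval with all 4 arrays includes 0 and also a decrease of the size seen for RNR2.

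RFX1, the repressor gene, was the only gene of the 5 above 0 on every array. It gave 0.28, 0.65, 0.23 and 0.23, with array 2 above the other 3. The mean was 0.35 ± 0.20 (SD, n = 4), a ratio of 1.27, with a 95% interval from 0.02 to 0.67. The limma adjusted p was 0.0817, and it stayed over 0.05 with any array left out (0.131 to 0.178). Among the 5955 fully measured probes, 26.8% were above 0 on each array, so that RFX1 shares this sign pattern with many probes. RNR1, RNR2 and RNR4 were below 0 on all arrays, which held for 28.1% of those probes.

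RFX1 lay above the called RNR genes on each array, which follows from their signs alone, so only the size of the distance is added here. RFX1 minus RNR4 was 0.96, 1.28, 0.90 and 0.89, a mean of 1.01 ± 0.18 (SD, n = 4). RFX1 minus RNR2 averaged 0.90 ± 0.20 and RFX1 minus RNR1 averaged 1.20 ± 0.55, each above 0 on 4 of 4 arrays. RFX1 minus RNR3 was above 0 on 3 of 4, with -0.11 on array 2. These differences are given as descriptions and were not tested.

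Ordered by the mean, the genes ran RNR1, RNR4, RNR2, RNR3 and RFX1, and the first 3 were close. RNR4 minus RNR1 was 0.20 ± 0.42 (SD, n = 4), above 0 on 2 of 4 arrays. RNR2 minus RNR4 was 0.10 ± 0.23, above 0 on 3 of 4. RNR3 lay above RNR2 on 4 of 4 arrays, by 0.47 ± 0.49, of which array 2 gave 1.15 and the other arrays 0.07, 0.16 and 0.51. RFX1 lay above RNR3 on 3 of 4 arrays, by 0.43 ± 0.36. The first 2 of these differences are smaller than their spread, the third is about as large as its spread, and the last is larger.

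The subunit genes were also compared within their kinds, in 2 pairs. For the large subunits, RNR3 minus RNR1 was 0.97, 1.88, -0.02 and 0.26, a mean of 0.77 ± 0.85 (SD, n = 4). The 2 genes were thus apart on arrays 1 and 2 and nearly level on array 3. The exact sign permutation test over the 4 arrays, two-sided, gave p = 0.25 (adjusted over the 2 pairs 0.375). For the small subunits, RNR4 minus RNR2 was -0.30, -0.23, -0.09 and 0.21, a mean of -0.10 ± 0.23, with an exact permutation p of 0.375 (adjusted 0.375). The smallest p that this test can give is that of 2 among 16 assignments of signs, which is over 0.05, so it cannot show a difference here. RNR1 and RNR3 are similar in sequence, the probe sequences were not analysed here, and how much each probe reports the transcript of the other was not tested.

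The spread among the RNR genes changed from array to array. On array 3 the 4 genes lay within 0.27 of each other, on array 4 within 0.51, on array 1 within 0.97, and on array 2 within 1.88, where RNR1 was lowest and RNR3 highest. Their mean was -0.67, -0.35, -0.52 and -0.62 on arrays 1 to 4. The mean of the 4 genes was thus below 0 on every array, and closest to 0 on array 2.

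**Figure D3:**
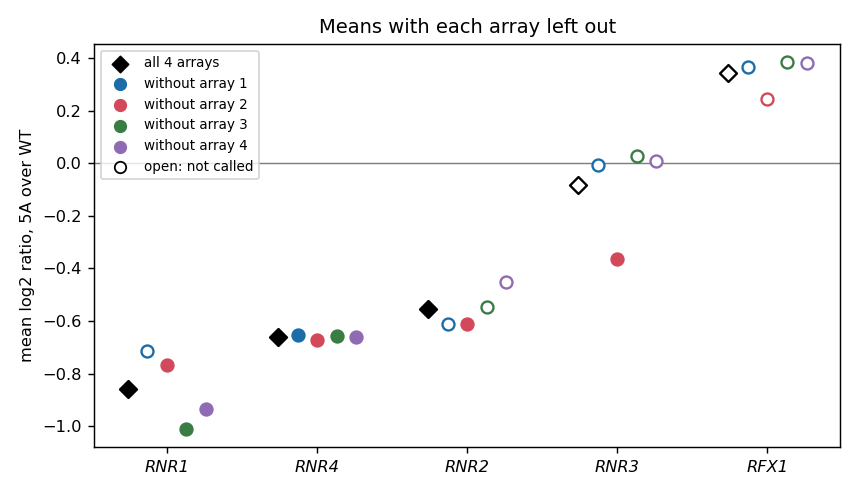
Mean log2 ratio of 5A over WT (vertical axis) of each gene with all 4 arrays (diamonds) and with each array left out (circles). Filled symbols had a limma adjusted p under 0.05. RNR4 stays between -0.67 and -0.65, while RNR3 spans -0.36 to 0.03.

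Genes beside these 5 on the chromosomes covered a wide range. RNR1 (YER070W) lies between ARG56, an arginine biosynthesis gene, and TDA2, which had means of 0.77 (limma adjusted p = 0.00394) and -0.28. None of the 5 probes on either side of RNR1 was as low as it, and their median was -0.04. RNR2 lies between YJL027C at 0.27 and RRN7, a gene of the RNA polymerase I machinery, at 0.33, with a median of -0.03 over its 10 neighbours, of which 1 was lower than RNR2 (MPS3, -0.62).

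RNR4 lay among neighbours of mixed direction. Its flanking genes were OKP1, a kinetochore gene, at -0.59 (limma adjusted p = 0.0149) and TIM13, a mitochondrial import gene, at 0.43. Of its 10 neighbours 4 were called lower and 2 higher, beside 20.7% and 19.8% of all probes. Their median was -0.29, and none was lower than RNR4. RNR3 lies between YIL067C at -0.35 and FIS1, a mitochondrial fission gene, at 0.14. The 10 neighbours of RNR3 had a median of -0.22, with 3 called lower and 1 higher. RFX1 lies between CBF5, the pseudouridine synthase of snoRNA particles, at -0.54 (limma adjusted p = 0.0265) and YLR177W at -0.12, and 9 of its 10 neighbours were lower than it.

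**Figure D4:**
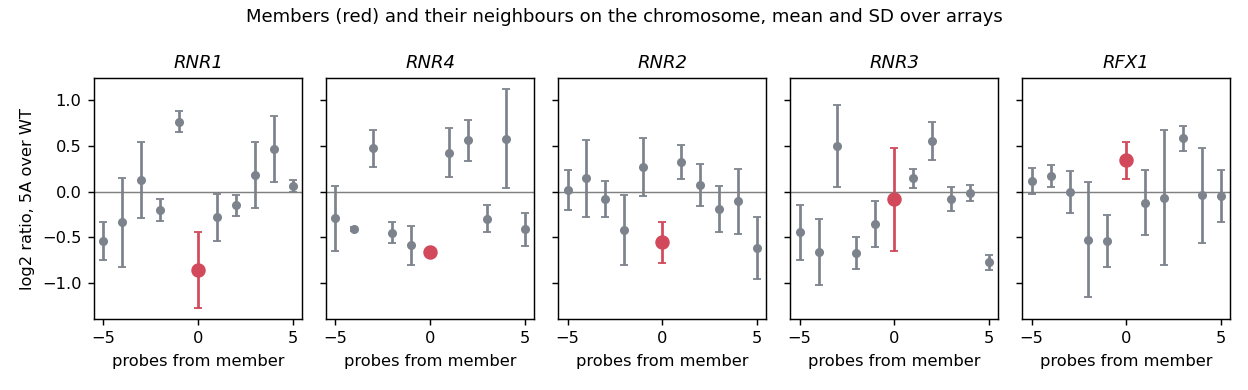
Mean log2 ratio of 5A over WT with its SD over the arrays (vertical axis) for each gene (red) and the 5 probes on either side of it in gene order (grey, horizontal axis). RNR1 and RNR4 are the lowest points of their panels, at -0.86 and -0.66, and RFX1 at 0.35 is above 9 of its 10 neighbours.

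The probes with the most similar values over the 4 arrays, by Euclidean distance among 5004 probes with a gene symbol, were not other RNR genes. OSH3 (distance 0.283) and MMS21 (0.370) were nearest to RNR1, HXK1 (0.174) and EEB1 (0.179) to RNR2, and BER1 (0.119) and CAB2 (0.123) to RNR4. From RNR2, RNR4 was the gene at rank 116, and from RNR1 it was at rank 122. These distances describe 4 values a gene.

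Upstream of the enzyme stand the damage checkpoint genes. Of 12 genes for checkpoint kinases and adaptors, 3 were called higher and 2 lower, with a median of 0.14, and 41.7% of them were called in either direction beside the 40.5% of all probes. MEC1, the sensor kinase at the head of the pathway, had 0.99, 1.13, 1.35 and 1.17, a mean of 1.16 (limma adjusted p = 0.00111), and was high on every array. DUN1, the kinase that acts on Sml1 and upstream of Rfx1, had 1.02, 0.45, 0.87 and 0.81, a mean of 0.79 (limma adjusted p = 0.00579). RAD53, the kinase between them, had a mean of -0.20 (limma adjusted p = 0.291) and was close to 0 on array 1 and lowest, -0.52, on array 2.

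The other checkpoint calls were TEL1, the kinase related to Mec1, at 0.74, MRC1, the replication fork adaptor of Rad53, at -0.75, and DDC1, a subunit of the checkpoint clamp, at -0.69. MEC1, TEL1, DUN1 and MRC1 stayed called with each array left out in turn. DDC1 did not, and its values were -0.91, -0.75, -1.17 and 0.06.

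Of the 7 further genes for transcriptional regulators of the RNR genes, limma called 0, beside the 40.5% of all probes called. Among the 7, 0 had an unadjusted p under 0.05. TUP1 and CYC8, the corepressor genes, had means of -0.04 and -0.21. MBP1, the DNA-binding subunit of MBF, lay at -0.06, and NRM1, a repressor of the same targets, at -0.05. SWI6, the partner of Mbp1, was the lowest at -0.44, with 0.39 on array 2 and -0.45, -0.998 and -0.71 on the others, and it was called lower without array 2 (mean -0.72, limma adjusted p = 0.00830). IXR1, an activator of RNR1 on chromosome XI, was the highest at 0.15, and lay at -0.74 once each chromosome was centred on its median (limma adjusted p = 0.00688).

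Among genes with a CRT name, 4 outside the 5 measured genes had a probe. Of these, 1 was called, a share of 25% beside the 40.5% of all probes. This was CRT10, a negative regulator of RNR transcription, at 0.65 (limma adjusted p = 0.0250). The other 3, TUP1, CYC8 and CDC21 (0.58, limma adjusted p = 0.0839), also stand in other lists, and this list was put together after its values could be seen. The CRT10 call was lost without array 1 or 4, in fits that called 23.5% and 24.3% of all probes.

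A further list holds genes whose products act on the RNR proteins. Of 10 tested genes for subunit import, cofactor assembly and reduction, 5 were called higher and 1 lower, with a median of 0.38, in a table where 40.5% of probes were called and 19.8% called higher. DIF1, which carries Rnr2 and Rnr4 into the nucleus, had 0.72, 0.74, 0.76 and 0.44, a mean of 0.66 (limma adjusted p = 0.00738), and KAP122, an importin needed for their nuclear entry, had 0.58 (limma adjusted p = 0.0350). WTM1, which holds the small subunits in the nucleus, and its paralogue WTM2 were at -0.28 and -0.52 and were not called.

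The thioredoxin genes TRX1 and TRX2, whose products reduce the enzyme after each turn, were called higher at 0.55 and 0.62. DRE2, needed for the iron cofactor of the small subunit, was the highest of the list at 1.16, but lies on chromosome XI and was at 0.28 with chromosomes centred (limma adjusted p = 0.226). GRX3, a glutaredoxin of iron delivery, was the lower call at -0.49. With array 1, 3 or 4 left out, 3 of the genes in this list were called each time, and DIF1, DRE2 and TRX2 were called every time. Those fits called 23.5%, 24.5% and 24.3% of all probes.

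Other genes of deoxyribonucleotide supply were split. Of 10, limma called 4 higher and 3 lower, with a median of 0.32, beside the 40.5% of all probes called. CDC8, thymidylate kinase, was the lowest at -0.72, and DCD1, deoxycytidylate deaminase, and DFR1, dihydrofolate reductase, were also called lower, at -0.65 and -0.60. GUK1, guanylate kinase, was called higher at 0.83 and DUT1, the dUTP pyrophosphatase, at 0.65. The other 2 higher calls, URA6 (0.87) and YNK1 (0.62), lie on chromosome XI and were at -0.02 and -0.26 with chromosomes centred. DUT1 and DCD1 also lost their calls with chromosomes centred (limma adjusted p = 0.0529 and 0.0535). In that fit 3 of the 10 were called, as were 36.9% of all probes. Without array 1, 3 or 4, the called genes of this list numbered 2, 3 and 2, beside 23.5%, 24.5% and 24.3% of all probes. GUK1, DUT1 and DFR1 were called in none of those fits.

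Genes induced by DNA damage besides the RNR genes gave 2 higher and 2 lower calls of 13, with a median of -0.32. That is a called share of 30.8%, below the 40.5% of all probes. Without array 1, 3 or 4, 2 were called each time, and those fits called 23.5%, 24.5% and 24.3% of all probes. Without array 2, 8 were called, beside 51.3% of all probes. MAG1, a DNA glycosylase gene, was the lowest with -1.17, -1.04, -1.003 and -2.10, a mean of -1.33 (limma adjusted p = 0.00332), past 2-fold on its mean. RAD2, a nucleotide excision repair nuclease gene, was the other lower call at -0.49. The higher calls were DUN1 and UBI4, the polyubiquitin gene, at 0.46. RAD54, a recombination gene, had a mean of -0.02 and was not called.

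RNR1 belongs to the genes that peak at G1/S, and the other genes of that phase gave 2 calls of 13, both higher and both on chromosome XI (PRI2, 0.98, and RAD27, 0.81), a share of 15.4% beside the 40.5% of all probes. With chromosomes centred 0 of the 13 and 36.9% of all probes were called. Without array 2 the list had 6 calls, beside 51.3% of all probes. Without array 1 or 3 it had 1, beside 23.5% and 24.5%, and without array 4 it had 3, beside 24.3%. The list's median was -0.15. CLB6, an S phase cyclin gene, was the lowest at -0.75 (limma adjusted p = 0.0529), with values of -1.57, -1.06, -0.24 and -0.11 over the 4 arrays. CLB6 and RNR1 were thus both lower on arrays 1 and 2 than on arrays 3 and 4. CDC45 of the same list was instead lower on arrays 3 and 4 (-0.18, -0.01, -0.58 and -0.50 on arrays 1 to 4). How many probes share either pattern was not counted.

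The lists of the later phases are set beside the same 40.5% of all probes called and 20.7% called lower. Without array 1, 3 or 4, 23.5%, 24.5% and 24.3% of all probes were called. Of 8 histone genes, whose pairs are close copies that a probe may not separate, 3 were called lower and 0 higher, with a median of -0.24, HTB2 the lowest at -0.52 and HHF1 the highest at 0.14, a called share of 37.5%, and 0 of the 8 were called without array 1, 3 or 4. Of 7 G2/M genes, 2 were called lower, among them the cyclin gene CLB1 at -0.75, with a median of -0.43 and CDC5 the highest at 0.04. The called share was 28.6%, and 1, 1 and 0 of the 7 were called without array 1, 3 or 4. Of 7 M/G1 genes, 4 were called lower and 2 higher, a called share of 85.7%, with a median of -0.61, and 1, 4 and 1 of them were called without array 1, 3 or 4. The chitinase gene CTS1 was the lowest at -0.82, and ASH1, on chromosome XI, the highest at 0.51, where it was -0.38 with chromosomes centred. The part of a shift in cell cycle phase in the RNR values was not tested.

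**Figure D5:**
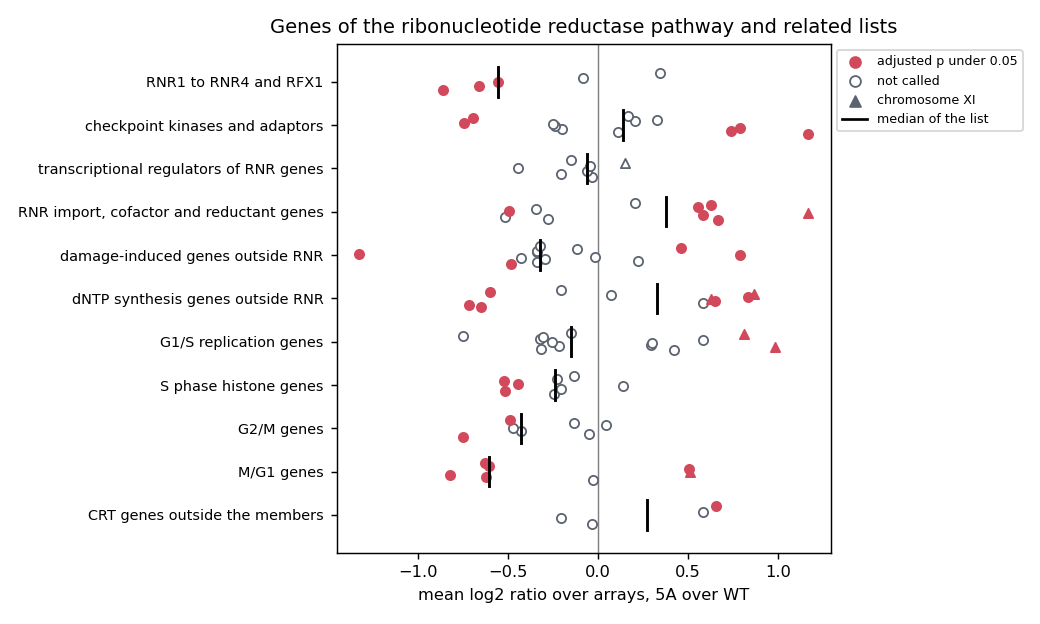
Mean log2 ratio of 5A over WT (horizontal axis) of each gene of the related lists, 1 row a list, with the RNR genes and RFX1 at the top. Filled red symbols had a limma adjusted p under 0.05, triangles lie on chromosome XI, and black bars are medians. The RNR row has a median of -0.56 and the transcriptional regulators have no filled symbol.

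In all, 84 genes of these 9 lists other than the CRT list were tested and 34 were called, 17 lower and 17 higher, a share of 40.5% that equals that of all probes. Of these 34, 13 were kept without array 1, 17 without array 3, 14 without array 4 and 30 without array 2. Those fits called 23.5%, 24.5%, 24.3% and 51.3% of all probes, so calls depended on the arrays across the whole table. The 11 kept with each array left out in turn were MEC1, TEL1, DUN1, MRC1, DIF1, DRE2, TRX2, MAG1, URA6, PRI2 and CTS1. Of these, DRE2, URA6 and PRI2 lie on chromosome XI. With chromosomes centred they were at 0.28, -0.02 and 0.09 and were not called. That setting kept 25 of the 34 calls and called 36.9% of all probes.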

How the data were processed

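The data of 4 arrays were used as the authors deposited them, as log2 ratios per probe and array, made from GenePix scans and processed on the BASE server. The normalization settings are not given in the sources used here. Dim or saturated spots could not be recognised from the ratios. The direction of 5A over WT is likely: 325 probes with 4 values had a mean at or above 1 and 493 at or below -1, the same as the counts of raised and lowered genes in the study. The 6157 probes measured on 2 or more arrays entered an intercept-only fit (limma 3.58.1 with eBayes, R 4.3.3), with Benjamini-Hochberg adjustment over all of them and a threshold of 0.05. The fit was tested on simulated data. Gene names, chromosomes and gene order came from a RefSeq gene table (assembly R64), which matched 5724 of 6210 probes. The array design's build is not given in the sources used here, so no coordinates are printed.

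The genes and lists were chosen with earlier results of these data known. Genes were named by rule: the listed genes, their flanking genes, called list genes past 2-fold on their mean, the highest and lowest of each list, and the 2 nearest probes by distance. Other list genes were named after their values were seen, and some are not reported here. Tables and figures were made in Python 3.11.15 (pandas 2.3.3, numpy 2.4.6, scipy 1.17.1, matplotlib 3.10.9).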

Additional observations from a re-analysis of the deposited data

Results flagged for a closer look

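Of the 5 measured genes, 2 had a value on 1 array that stood apart from the other 3 by a gap, relative to the whole range, over Dixon's critical value, a limit that chance passes in about 1 in 20 groups. Both values are on array 2. RNR3 was at 0.76 there and at -0.32, -0.42 and -0.36 on arrays 1, 3 and 4, a gap of 0.915 of its range. RFX1 was at 0.65 there and at 0.28, 0.23 and 0.23 on the others, a gap of 0.882 of its range. Array 2 also had the lowest relative quality weight (0.35) and the smallest SD over all its probes (0.74, against 0.86 to 0.97 for the others), and the part of that array in either value was not tested. How many of all probes passed Dixon's limit was not counted. The probes nearest to RNR3 and RFX1 by distance were chosen for similar values on the 4 arrays. That they were highest on array 2 follows from that choice. They were ECM13 (-0.29, 0.69, -0.39 and -0.27 on arrays 1 to 4) and AME1 (0.20, 0.66, 0.23 and 0.22).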

How the results depend on the processing

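RNR1, RNR2 and RNR4 kept their direction in all 13 alternatives to the fit or average. RFX1 stayed above 0 in all of them and uncalled in each fit. Each of these genes had the same sign on every array. Leaving out an array, weighting the arrays or taking the median could therefore not reverse it, and some other fits left the mean unchanged. Tested against a log2 ratio of 0.5 in place of 0 (limma treat), RNR1 at -0.86, RNR2 at -0.56 and RNR4 at -0.66 lost their calls (limma adjusted p 0.233, 1.00 and 0.460), 0 of the 5 genes, 3 genes of the related lists and 646 of all probes were called. With chromosomes centred on their medians RNR3 turned to 0.0090. With each array left out in turn, the means ran from -1.01 to -0.71 for RNR1, from -0.61 to -0.45 for RNR2, from -0.36 to 0.03 for RNR3 (0.0285 without array 3 and 0.0081 without array 4), from -0.67 to -0.65 for RNR4 and from 0.24 to 0.39 for RFX1. The called genes of the 5 then numbered 1 (without array 1) to 4 (without array 2), those of the related lists 13 to 44, and all called probes 1438 to 3120. RNR3 minus RNR1 ranged from 0.40 to 1.04 and RNR4 minus RNR2 from -0.21 to -0.04. Each array holds 1 5A and 1 control sample, so the fit on ratios is itself the paired analysis, and a fit without that pairing cannot be made from ratios. The difference between HUG1 and SML1 and counts of promoter motifs were not run. The number of arrays limits the precision.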
